A study of Mus musculus with 23 samples.

Results

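The genes examined here govern how much iron the liver takes in, stores and lets into the blood: the hepcidin genes *Hamp* and *Hamp2*, the signals that set them (*Bmp6*, *Hfe2*, *Tfr2*), the readouts of the same signalling (*Id1*, *Smad7*), the iron exporter *Slc40a1* and the ferritin subunits *Fth1* and *Ftl1*. Probes were taken by name, as every probe whose gene name on the array was in this list, and the list was drawn up with earlier results of these data known. All 10 genes were found, on 14 probes, and all 14 passed the filter that kept 32087 of 56605 probes and 21056 gene names. Each gene was read from its probe with the highest mean signal, and the other probes are given beside it. *Hfe2* is the array's name for the gene that RefSeq now lists as *Hjv*.

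Liver RNA came from 23 male C57BL/6J mice, 1 array per mouse. Wild-type mice given corn oil (WT CONT, n = 6) or 100 mg/kg pregnenolone 16α-carbonitrile in corn oil (PCN, an activator of the nuclear receptor PXR; WT PCN, n = 5) were set beside *Pxr*-/- mice given the vehicle (Pxr-/- CONT, n = 6) or PCN (Pxr-/- PCN, n = 6). Injections were intraperitoneal and daily for 4 days, and mice were killed 6 h after the last. The labels give the fed state, whereas the study's text describes the mice as semi-fasted at that hour of the light phase. Mice of both genotypes were acclimatized for 2 weeks. WT mice were bought at 6 weeks of age. The *Pxr*-/- mice, backcrossed onto the same background, came from a colony kept in the facility, so that genotype and colony cannot be told apart. The age of the *Pxr*-/- mice is not given in the study's text. The known PXR target *Cyp3a11* was at a log2 signal of 13.62 ± 0.42 (SD, n = 6) in WT CONT and 17.16 ± 0.16 (n = 5) in WT PCN, against 14.31 ± 0.52 and 14.62 ± 0.37 in the corresponding Pxr-/- groups (n = 6 each). The probe for *Nr1i2*, which encodes PXR, had nearly equal means in both control groups (11.47 and 11.44), and whether it lies in the deleted part of the gene is not given in the sources used here.

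Hepcidin is a peptide hormone that hepatocytes release when iron is plentiful, and it makes cells withdraw ferroportin, the product of *Slc40a1*, from their surface so that less iron enters the plasma. In the liver, BMP6 and BMP2 from endothelial cells act on hepatocytes through BMP receptors, with hemojuvelin (*Hfe2*) as a co-receptor, and the resulting SMAD signal turns on *Hamp* together with *Id1*, *Smad7* and *Smad6*. Interleukin 6 acts on *Hamp* through STAT3 in inflammation, and cells also tune ferritin and transferrin receptor through iron-responsive elements in their mRNAs. The mouse carries a second hepcidin gene, *Hamp2*, whose product is not known to regulate iron in the way the *Hamp* product does.

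*Hamp* and *Hamp2* changed in opposite directions in WT mice, as given below, and their sequences are shown first. Both lie on the minus strand of chromosome 7, 18186 bp apart in RefSeq annotation of GRCm38.p6. The 2 array probes are 60 bases each, on chromosome 7 at 31727490-31727549 (*Hamp*) and 31707520-31707579 (*Hamp2*) in mm9, the build of the array files. Aligned without gaps over 59 bases, they were identical at 42 (71.2%) and differed at 17, which are in capitals here.
*Hamp* probe: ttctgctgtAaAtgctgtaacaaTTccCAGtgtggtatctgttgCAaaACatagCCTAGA
*Hamp2* probe: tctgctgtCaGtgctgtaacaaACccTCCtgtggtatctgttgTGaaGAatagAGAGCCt

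The 250 bases before the RefSeq start of each gene were far more alike, with 227 of 247 aligned bases identical (91.9%). They are shown 5′ to 3′ on the gene's strand. BMP and STAT3, which are among the known inputs to *Hamp*, act at least in part on this stretch. Capitals mark the GGCGCC of BMP-responsive elements, or the bases aligned with it, and the STAT motif TTCNNNGAA. Each motif reads the same on both strands, and the matches do not overlap.
*Hamp*, chr7:30944030-30944279 (GRCm38.p6, minus strand): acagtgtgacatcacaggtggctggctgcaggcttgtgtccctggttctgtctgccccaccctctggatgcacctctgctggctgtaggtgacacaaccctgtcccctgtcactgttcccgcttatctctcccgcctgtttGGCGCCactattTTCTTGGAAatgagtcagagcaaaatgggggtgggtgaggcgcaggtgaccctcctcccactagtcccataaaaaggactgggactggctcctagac
*Hamp2*, chr7:30924182-30924431 (GRCm38.p6, minus strand): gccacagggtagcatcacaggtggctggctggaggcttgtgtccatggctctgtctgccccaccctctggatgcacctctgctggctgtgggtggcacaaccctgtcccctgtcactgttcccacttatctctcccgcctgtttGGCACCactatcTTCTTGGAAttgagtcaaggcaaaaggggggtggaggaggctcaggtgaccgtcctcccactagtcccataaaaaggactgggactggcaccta

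The *Hamp* window held 1 GGCGCC, beginning 109 bases before the start, and the *Hamp2* window held 0. Counted from 1 at the 5′ end of the *Hamp* window, the difference within these 6 bases was G145A. The STAT motif was present once in each window with no difference inside it, beginning 97 bases before the *Hamp* start. Of 32851 RefSeq promoter windows of the same 250 bases, 9.6% held GGCGCC and 7.0% held TTCNNNGAA. A match describes the letters only, and the arrays measured transcript level, not promoter activity. Whether these sequence differences bear on the changes of *Hamp* and *Hamp2* was not tested.

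PCN in WT mice was accompanied by lower *Hamp*, *Smad7* and *Slc40a1* and by higher *Hamp2*. A gene was called when the Benjamini-Hochberg adjusted p of the limma fit was at most 0.05 and the fold change above 1.5. By this rule 3 of the 10 genes were called lower and 1 higher, against 2.39% and 3.79% of all 21056 genes tested. In Pxr-/- mice, 0 of the 10 were called after PCN, against 2.28% of all genes. In each genotype 6 of the 10 differences had a negative sign, but these were not all the same genes. *Hamp* and *Tfr2* were negative in WT mice only, and *Hamp2* and *Ftl1* in Pxr-/- mice only. The difference between the genotypes' responses was called for 0 of the 10 (1.05% of all genes), so a dependence on PXR was not shown for any of them. The median log2 change over the 10 genes was -0.33 in WT and -0.14 in Pxr-/- mice, and over all genes -0.02 and -0.01. In a whole-liver extract, fewer cells of a type and less RNA per cell cannot be told apart.

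**Figure D1:**
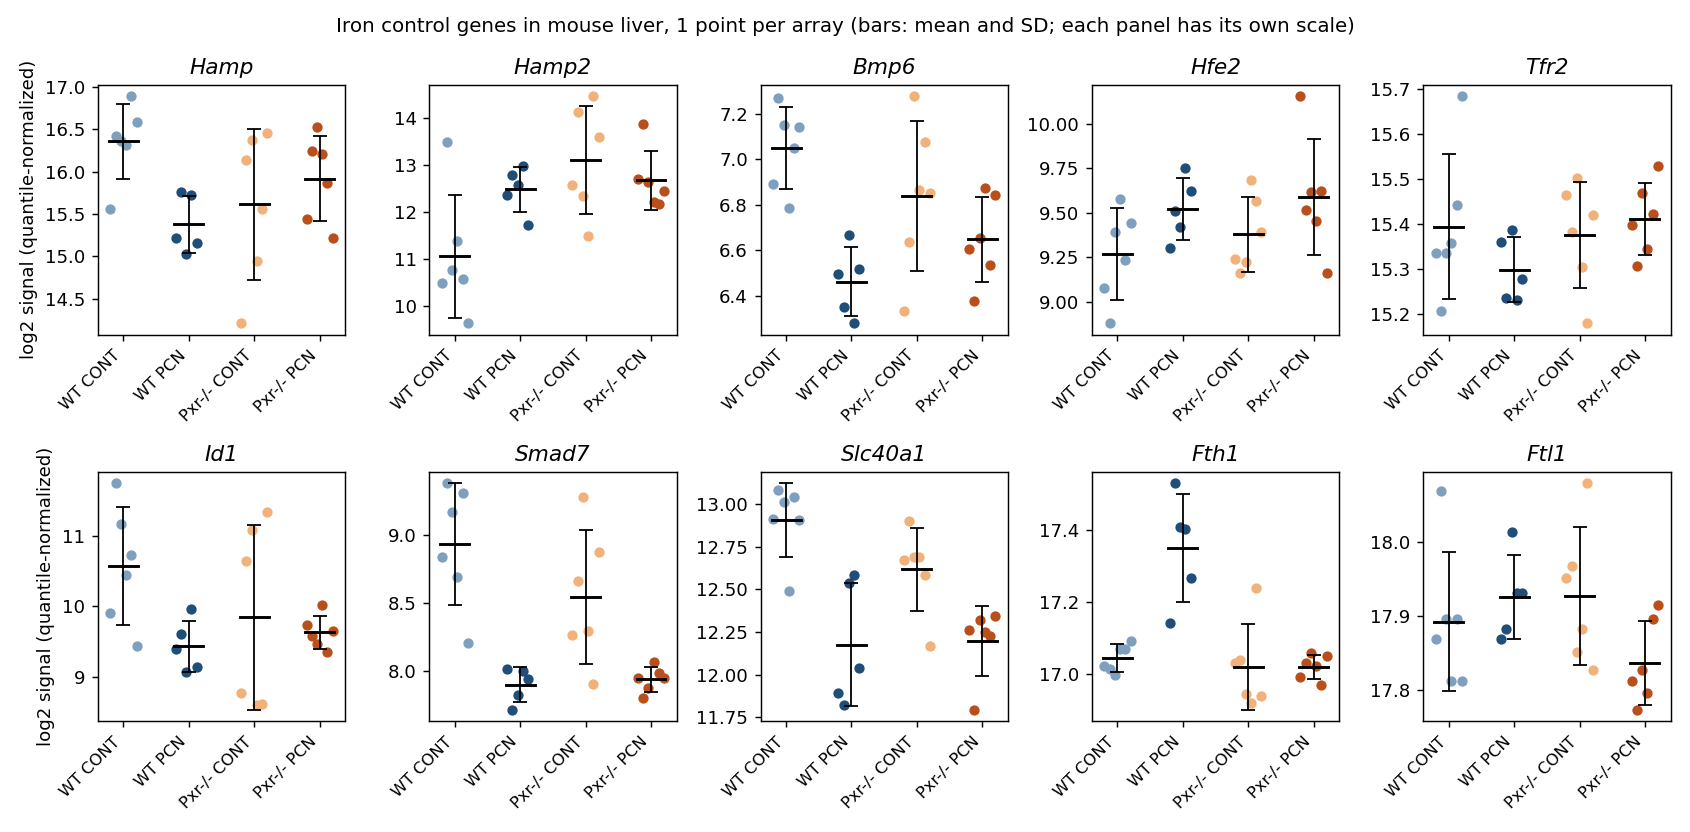
Log2 signal of the 10 genes in every liver, with 1 panel per gene on its own scale, 1 point per array, a thick bar at the group mean and thin bars of 1 SD. *Smad7* and *Bmp6* do not overlap between WT CONT and WT PCN, *Fth1* does not overlap between them either, and *Hamp2* is low in 5 of the 6 WT CONT livers. How many of all genes do not overlap between these groups was not counted.

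*Hamp* encodes the active hormone. Its log2 signal in WT CONT ranged from 15.56 through a median of 16.39 to 16.89, and the 5 WT PCN livers read 15.22, 15.76, 15.02, 15.73 and 15.16. Only WT CONT replicate 1 overlapped the WT PCN range, and the other WT CONT livers lay at 16.32 or above. *Hamp* was 1.93-fold lower after PCN in WT mice (log2 change -0.95, SE 0.32, adjusted p = 0.0381), at -0.90 within the first washing batch and -1.05 within the second. The Pxr-/- CONT livers were the most scattered, from 14.21 through 15.85 to 16.46, and the Pxr-/- PCN livers ran from 15.22 through 16.04 to 16.52. The PCN difference of *Hamp* in Pxr-/- mice was 0.30 (SE 0.31, adjusted p = 0.623), and the 95% interval from -0.34 to 0.94 still allowed a change in either direction. WT minus Pxr-/- response was -1.25, with an interval from -2.18 to -0.32 but an adjusted p of 0.182. The call in WT mice was close to its threshold: leaving out 1 array at a time kept it in 3 of 11 cases (without WT CONT replicate 1 or 4, or WT PCN replicate 4), with changes from -1.09 to -0.80 and adjusted p from 0.0262 to 0.112.

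*Hamp2* moved the other way. In WT CONT its log2 signal ran from 9.62 through a median of 10.66 to 13.47, and the WT PCN livers read 12.36, 12.78, 12.56, 12.97 and 11.72. WT CONT replicate 2, at 13.47, was above every WT PCN liver, whereas the other 5 WT CONT livers, at 11.38 or less, were below every one. The rise was 2.81-fold (log2 change 1.49, SE 0.52, adjusted p = 0.0432). Without WT CONT replicate 2 it was 1.92 (adjusted p = 0.00443). Omission of any other WT array except WT PCN replicate 5 took the adjusted p above the threshold, up to 0.105, with changes down to 1.15.

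The *Hamp2* signals of the Pxr-/- livers overlapped those of WT PCN with and without treatment, at 11.49 to 14.46 with a median of 13.08 in Pxr-/- CONT, and 12.15 to 13.87 with a median of 12.54 in Pxr-/- PCN. Both ranges overlapped that of WT CONT only through its replicate 2. The difference between the control groups was 2.05 (SE 0.50, 4.14-fold), with an adjusted p of 0.0741 over all probes, so it was not called. It was called without WT CONT replicate 2 (2.50, adjusted p = 0.00804) and without Pxr-/- CONT replicate 4 (2.32, adjusted p = 0.0403). *Hamp2* differed by -0.43 in Pxr-/- mice (adjusted p = 0.679), and the genotypes' responses differed by 1.92 (interval 0.42 to 3.42, adjusted p = 0.209). Genotype differences in the controls were called for 0 of the 10 genes (0.309% of all genes), and genotype differences under PCN for 0 of the 10 as well (2.09%).

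**Figure D2:**
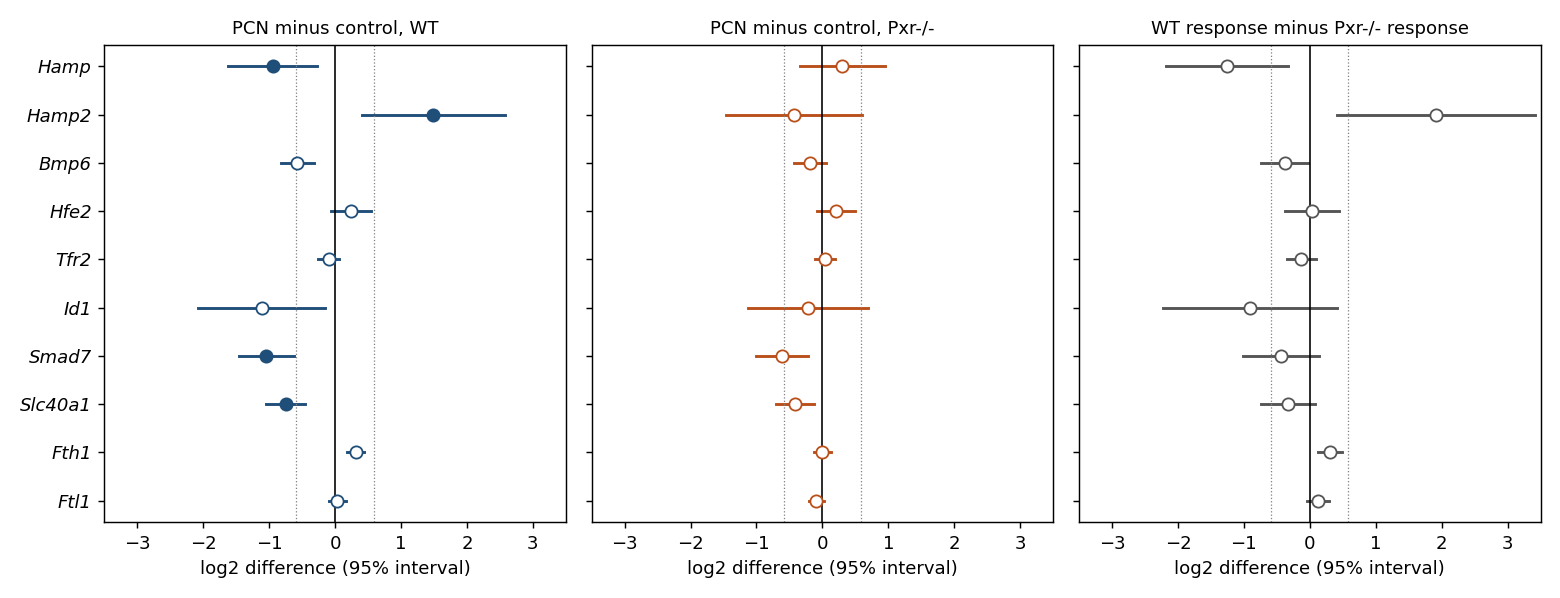
Fitted log2 difference with its 95% interval for the 10 genes, for PCN in WT mice, PCN in Pxr-/- mice and the difference between these responses. Filled points were called, and dotted lines mark a fold of 1.5. Filled points appear in the WT panel alone, and the interaction intervals of *Hamp*, *Hamp2*, *Bmp6* and *Fth1* exclude 0 before adjustment for the number of probes.

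Of the genes that signal to *Hamp*, *Bmp6* encodes the ligand. It was at 6.79 to 7.27 (median 7.10) in WT CONT, and the WT PCN livers read 6.49, 6.35, 6.67, 6.28 and 6.52, with no overlap. Its log2 change was -0.57 (SE 0.12, adjusted p = 0.00208), a 1.48-fold difference that was just short of the fold threshold and was not called. Among Pxr-/- mice the change was -0.19 (adjusted p = 0.362), with control livers from 6.33 to 7.28 and PCN livers from 6.38 to 6.87. Omitting any of 5 WT arrays (WT CONT replicates 1 and 4, WT PCN replicates 1, 3 and 5) brought *Bmp6* past the fold threshold in WT mice, with changes down to -0.64.

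Neither *Hfe2* nor *Tfr2* was called in any comparison. *Hfe2*, the hemojuvelin co-receptor, ran from 8.88 to 9.58 in WT CONT and from 9.30 to 9.75 in WT PCN, with a log2 change of 0.24 (interval -0.06 to 0.54). The knockouts' change was 0.21. *Tfr2*, a hepatocyte sensor of iron-loaded transferrin, differed by -0.10 in WT mice (interval -0.26 to 0.06) and by 0.04 in Pxr-/- mice, and its second probe by -0.12 and 0.08. These intervals leave out a fold of 1.5 in either direction for both genes in WT mice.

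*Id1* and *Smad7*, immediate targets of BMP and SMAD signalling, had their lowest WT values among the PCN livers. *Smad7*, which encodes an inhibitory SMAD that damps the pathway, was at 8.20 to 9.39 (median 9.01) in WT CONT and at 8.01, 7.71, 7.82, 8.00 and 7.94 in WT PCN. The groups did not overlap, and *Smad7* was 2.06-fold lower (log2 change -1.05, SE 0.20, adjusted p = 0.000819). Its dimmer probe was also called (-0.64, adjusted p = 0.0408) and was not well above background on 1 WT PCN array. In Pxr-/- mice *Smad7* ran from 7.90 to 9.28 (median 8.48) without PCN and from 7.80 to 8.06 (median 7.95) with it. The change of -0.61 had an adjusted p of 0.0589 and was not called. It was called without Pxr-/- CONT replicate 4 (-0.67, adjusted p = 0.0493) or replicate 5 (-0.74, adjusted p = 0.0282). The genotypes' responses differed by -0.44 (interval -1.01 to 0.14, adjusted p = 0.508).

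*Id1*, a transcriptional regulator without a DNA-binding domain of its own, ran from 9.44 to 11.75 (median 10.59) in WT CONT and read 9.39, 9.61, 9.06, 9.96 and 9.14 in WT PCN. Its 2.17-fold lower mean (log2 change -1.12, SE 0.46) did not pass (adjusted p = 0.0852), and the groups overlapped through WT CONT replicates 1 and 6. It passed without WT CONT replicate 6 (-1.37, adjusted p = 0.0332). In Pxr-/- CONT, *Id1* was widely spread, with replicates 1 to 6 at 8.77, 10.64, 11.09, 8.61, 8.61 and 11.34. In the same order, *Hamp* read 14.21, 16.14, 16.37, 14.95, 15.55 and 16.46, and *Smad7* read 8.26, 8.66, 9.28, 8.29, 7.90 and 8.87. The PCN-treated livers of both genotypes had no *Id1* signal above 10.01.

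Across arrays, with group and batch means removed, all 45 pairs of the 10 genes were compared with 100000 permutations within groups. For *Id1* and *Smad7*, Pearson's r was 0.88 (n = 23, permutation p = 5e-05, adjusted p = 0.00225) and Spearman's rho was 0.91 (permutation p = 0.00015, adjusted p = 0.00675). The r was 0.86 without the 2 arrays farthest in *Id1*, 0.81 and 0.94 within the washing batches, and 0.87 over the 17 arrays left without Pxr-/- CONT. This was the 1 pair of 45 that passed the adjustment. For *Hamp* and *Id1*, r was 0.61 and rho 0.65 (permutation p = 0.0184 and 0.00682, adjusted p = 0.167 and 0.153). Without Pxr-/- CONT that r was 0.30. *Hamp* and *Hamp2* had an r of 0.20 and a rho of 0.31 (permutation p = 0.439 and 0.200, adjusted p = 0.730 and 0.556).

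**Figure D3:**
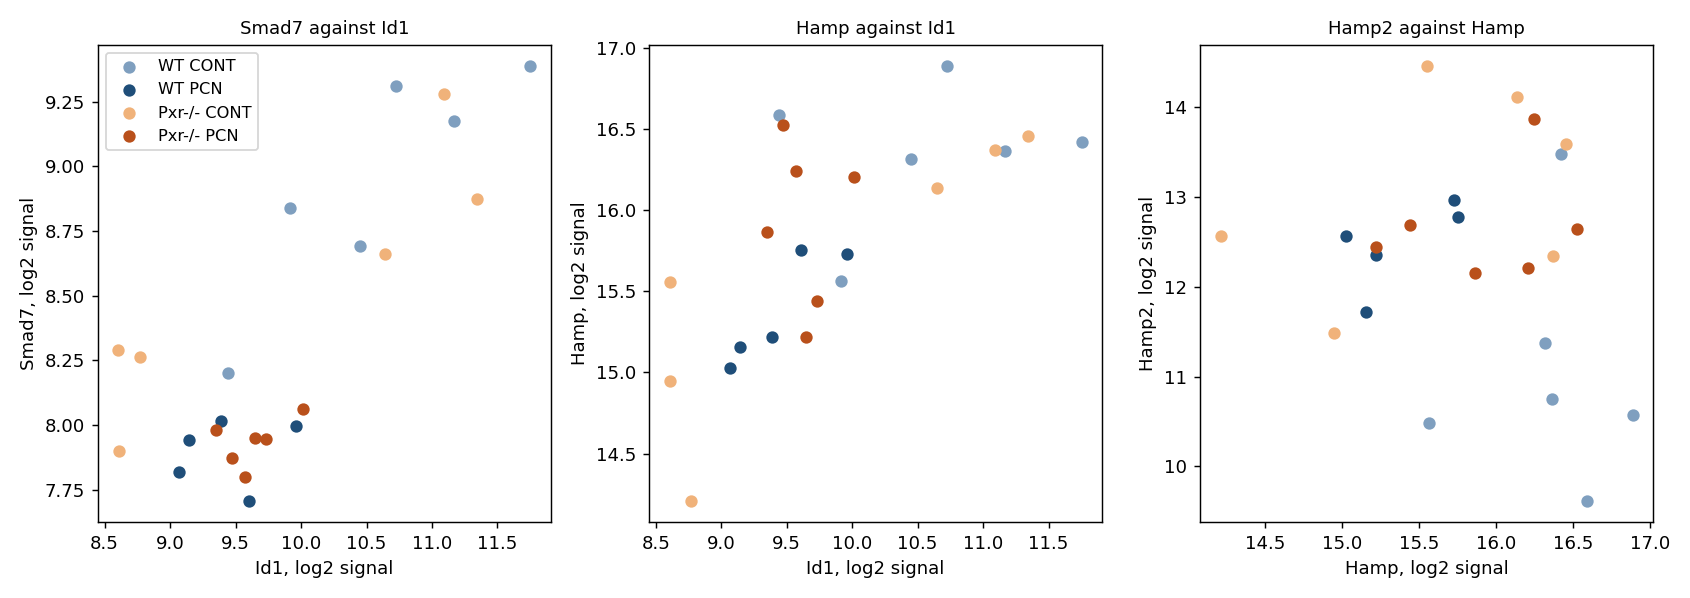
Log2 signals of pairs of genes in each liver, coloured by group: *Smad7* against *Id1*, *Hamp* against *Id1*, and *Hamp2* against *Hamp*. No PCN liver of either genotype lies above 10.01 in *Id1* or above 8.06 in *Smad7*. The Pxr-/- CONT livers fall at both ends of *Id1*, with replicates 1, 4 and 5 below every PCN liver. The lowest *Hamp2* signals of all 23 are those of 5 of the 6 WT CONT livers.

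*Slc40a1*, the ferroportin gene, was lower after PCN in WT mice. It ran from 12.49 to 13.08 (median 12.97) in WT CONT and read 11.89, 11.82, 12.54, 12.59 and 12.04 in WT PCN. WT CONT replicate 4, the lowest of its group, lay just under the 2 highest WT PCN livers. The change was 1.68-fold (log2 change -0.75, SE 0.14, adjusted p = 0.000803), and the call held with any 1 array left out. The range in Pxr-/- mice was 12.17 to 12.90 without PCN and 11.79 to 12.34 with it, and the change of -0.42 was not called (adjusted p = 0.0696). The genotypes' responses differed by -0.33 (interval -0.74 to 0.08, adjusted p = 0.475).

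The second *Slc40a1* probe, on another annotated transcript, gave -0.33 in WT mice (adjusted p = 0.0845) and -0.47 in Pxr-/- mice (adjusted p = 0.0343), both below the fold threshold. With the mean of both probes, or with the values the authors deposited, *Slc40a1* in WT mice was -0.54 and -0.58, under a fold of 1.5, at adjusted p of 0.00145 and 0.0135.

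Kupffer cells also express *Slc40a1*, and endothelial cells express *Bmp6*, so markers of both were read beside these genes. In WT mice 0 of 8 Kupffer cell markers and 0 of 10 endothelial markers were called after PCN, against 6.18% of all genes. The median log2 change of the Kupffer cell markers was 0.11 in WT and 0.28 in Pxr-/- mice. That of the endothelial markers was -0.10 and 0.19. In WT mice the endothelial markers were mixed in sign, from -0.23 (*Kdr*) to 0.71 (*Lyve1*, adjusted p = 0.0828). The log2 of the summed Kupffer cell markers ran from 14.92 to 15.87 in WT CONT and from 14.59 to 16.42 in WT PCN, and that of the endothelial markers from 14.47 to 15.02 and from 14.33 to 14.70. Hepatocyte markers (8 genes) summed to 20.59 to 20.79 in WT CONT and to 20.61 to 20.71 in WT PCN, with 0 called. Blood markers summed to 17.28 to 18.83 in WT CONT and to 17.42 to 18.15 in WT PCN, with 0 of 7 called. All 7 had a negative sign after PCN in both genotypes, with a median log2 change of -0.35 in WT and -0.38 in Pxr-/- mice. Of these, *Alas2* met the threshold on adjusted p in WT mice (-0.43, adjusted p = 0.0422). No tested marker was absent, and the part of cell makeup in these results was not tested.

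The ferritin subunits store iron inside cells. *Fth1*, the heavy chain with the ferroxidase centre, was confined to 17.00 to 17.09 in WT CONT, and all 5 WT PCN livers were above that range at 17.14, 17.53, 17.41, 17.40 and 17.27. Quantile normalization sets each signal by its rank on the array. Equal values recurred between arrays for *Fth1* (17.07 in WT CONT replicates 4 and 5) and for the brighter *Ftl1* probe, so their spread is read with that limit. The log2 change of *Fth1* in WT mice was 0.31 (SE 0.06, adjusted p = 0.00140), a 1.24-fold difference that was too small to be called. Over 11 other settings it ran from 0.24 to 0.41. The change in Pxr-/- mice was 0.00 (interval -0.13 to 0.13, adjusted p = 0.995), with livers from 16.92 to 17.24 without PCN and from 16.97 to 17.06 with it. Under PCN, *Fth1* was 1.26-fold lower in Pxr-/- than in WT mice, without overlap (log2 difference -0.34, adjusted p = 0.00280). The genotypes' responses differed by 0.31 (interval 0.13 to 0.49, adjusted p = 0.0861).

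*Ftl1*, the light chain that helps the iron core form, differed by 0.03 in WT mice (interval -0.09 to 0.16) and by -0.09 in Pxr-/- mice. Its second probe gave 0.18 and 0.04. Ferritin genes have many processed copies in the mouse genome, and whether these probes also read such copies was not tested. The arrays measure mRNA, and ferritin and ferroportin are also regulated after transcription, which these data do not measure.

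Of 50 further genes listed for these pathways, 48 were tested. In WT mice 3 were called higher and 0 lower after PCN, where 6.18% of all genes were called in either direction. In Pxr-/- mice 3 were called higher and 0 lower, where 2.28% of all genes were called in either direction, and the responses of 0 were called different between the genotypes (1.05% of all genes). The median log2 change over these 48 genes was 0.02 in WT and 0.10 in Pxr-/- mice.

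*Tfrc*, the transferrin receptor through which most cells take up iron, was at 7.30 ± 0.22 (SD, n = 6) in WT CONT and 8.67 ± 0.71 (n = 5) in WT PCN. This was a 2.66-fold rise (log2 change 1.41, SE 0.28, adjusted p = 0.00111). In the Pxr-/- groups *Tfrc* was at 7.44 ± 0.57 and 7.81 ± 0.55 (n = 6 each), a change of 0.37 (adjusted p = 0.458). *Slc25a37*, the mitochondrial iron importer, rose 1.76-fold in WT mice (log2 change 0.81, SE 0.15, adjusted p = 0.000510) while its change was 0.16 under PXR deletion (adjusted p = 0.552). For neither gene were the responses called different between genotypes, at adjusted p of 0.206 and 0.124. *Hmox1*, which opens heme and frees its iron, rose 1.51-fold in WT mice (log2 change 0.59, adjusted p = 0.0304) and had a change of 0.51 in the knockouts that was not called (adjusted p = 0.0994).

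Of the 6 genes listed for IL-6 and STAT3, 0 had responses called different between the genotypes, against 1.05% of all genes. After PCN in Pxr-/- mice, 2 of the 6 were called higher, against 1.42% of all genes. *Socs3*, the feedback inhibitor that STAT3 induces, rose 3.75-fold after PCN (log2 change 1.91, SE 0.43, adjusted p = 0.0105), and *Stat3* itself 1.68-fold (0.75, SE 0.19, adjusted p = 0.0210). *Slc39a14*, a hepatic importer of non-transferrin iron also known to respond to IL-6, rose 1.77-fold in the same livers (0.83, SE 0.16, adjusted p = 0.00493). In WT mice the 3 genes differed by 1.05, 0.44 and 0.40, at adjusted p from 0.0964 to 0.115. Those WT changes differed between washing batches: *Socs3* differed by 1.94 in the first and by -0.07 in the second, which held 2 WT PCN arrays. *Il6ra*, the IL-6 receptor, was 2.04-fold higher in Pxr-/- PCN than in WT PCN (1.03, SE 0.22, adjusted p = 0.00647).

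The BMP and SMAD list had 0 of its 16 genes called in any comparison, with a median of -0.19 in WT and -0.05 in Pxr-/- mice. Over the 5 comparisons, 0.309% to 6.18% of all genes were called. In WT mice 5 of the 16 met the threshold on adjusted p but not that on fold. On adjusted p alone, whatever the fold, 5064 of all 21056 genes met it in WT mice. The ligand gene *Bmp2* differed by -0.40 (adjusted p = 0.0421), the receptor gene *Acvr2a* by -0.21 (adjusted p = 0.0194) and *Tmprss6*, which encodes the protease that cleaves hemojuvelin, by -0.22 (adjusted p = 0.0295). With a positive sign were the receptor gene *Acvr1*, at 0.31 (adjusted p = 0.0174), and the hemochromatosis gene *Hfe*, at 0.24 (adjusted p = 0.0370). Among Pxr-/- mice 0 of the 16 met the threshold on adjusted p, against 1445 of all 21056 genes. These genes were named after their values were seen. The pathway's other known targets *Id3*, *Atoh8* and *Smad6* differed by -0.55, -0.66 and -0.29 in WT mice, at adjusted p of 0.192, 0.0662 and 0.109.

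**Figure D4:**
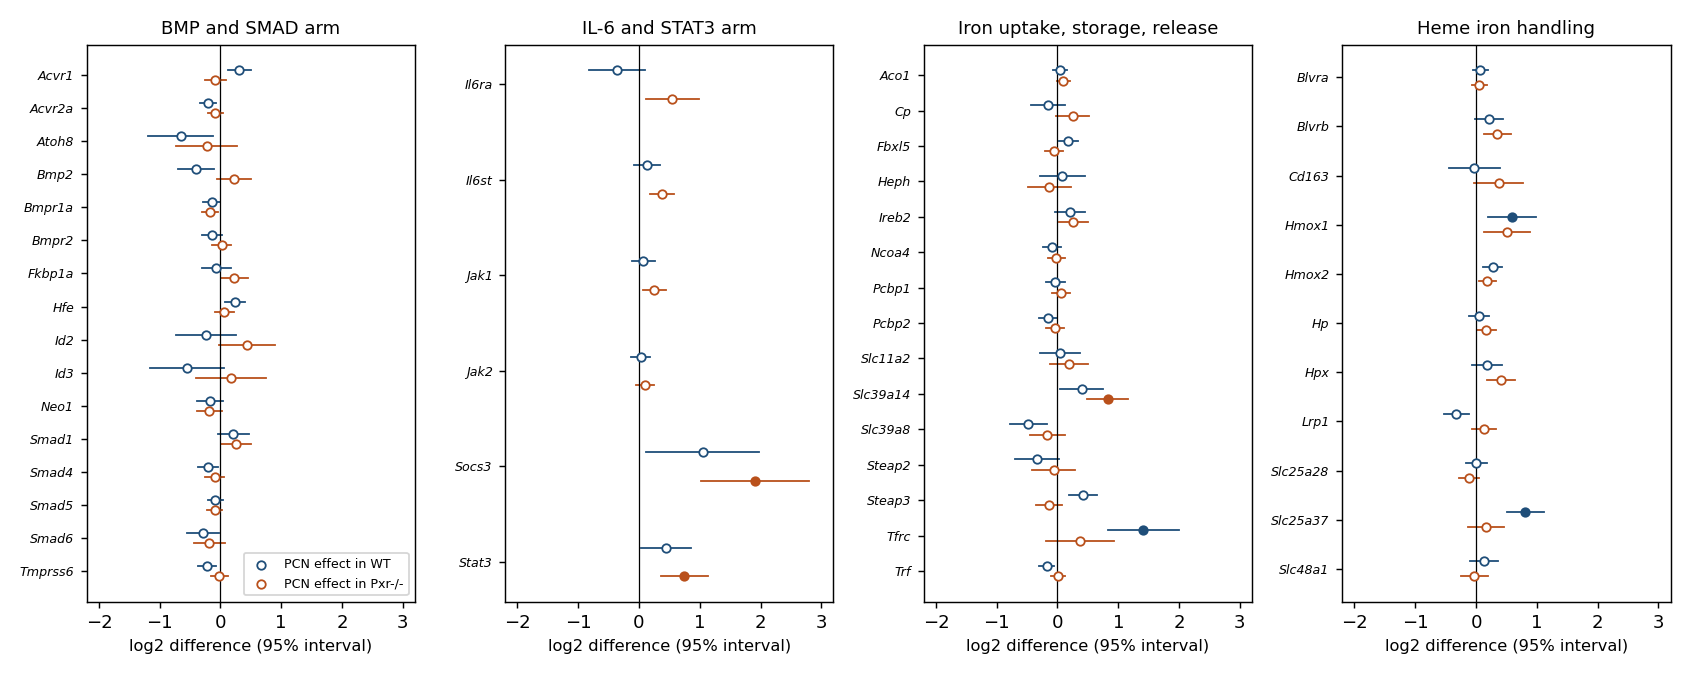
Fitted log2 change after PCN with its 95% interval for the 48 further iron genes, by list, in WT (blue) and Pxr-/- mice (orange). Filled points were called: *Tfrc*, *Slc25a37* and *Hmox1* in WT mice, and *Socs3*, *Stat3* and *Slc39a14* in Pxr-/- mice.

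The genes whose signal followed *Hamp* most closely over the 23 arrays were sought among 15090 genes with a RefSeq name, with the washing batch removed. The highest Pearson's r were those of *Gpkow* (0.82), *Atoh8* (0.79), *Gucy2c* (0.77), *Nr5a1* (0.77) and *Ssbp2* (0.69), and the lowest those of *Grik1* (-0.72), *Rasa3* (-0.70), *Itga2b* (-0.70), *Gm2568* (-0.68) and *Intu* (-0.68). The middle 98% of these genes lay between -0.51 and 0.53. With group means also removed, the r of *Gpkow*, *Atoh8*, *Gucy2c*, *Nr5a1* and *Ssbp2* ran from 0.72 to 0.82. Those of *Grik1*, *Rasa3*, *Itga2b*, *Gm2568* and *Intu* ran from -0.69 to -0.62. How far these r rest on the scattered Pxr-/- CONT livers was not tested. Every value rests on the same 23 livers, and the genes were picked for their place in the order, so these r are descriptions.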

How the data were processed

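Per the file headers, the deposited scanner files are Agilent Feature Extraction output (version 10.10.1.1 per the labels), with a linear intensity per spot and quality flags, 1 colour (Cy3), 62976 spots per array. The authors also deposited log2 values (32574 probes): per the study's methods, filtered median signal, corrected for washing batch and normalized with CrossNorm. These were used as an alternative.

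The log2 median intensity was used here. Spots flagged as outliers (2225 over 23 arrays) were set to missing, spots of a probe averaged, and a probe had to stand well above background in over 50% of a group's arrays, for any of the 4 groups, to be kept. Arrays were quantile normalized, so changes are relative to the whole array. Between 29510 and 33321 probes per array were well above background; the number of arrays limits the precision.

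All 23 arrays entered 1 limma fit (lmFit, eBayes; limma 3.58.1, R 4.3.3) with 4 groups and an additive washing batch (18 residual degrees of freedom). P-values were Benjamini-Hochberg adjusted over 32087 probes. SE and 95% intervals are those of the moderated fit and intervals are not adjusted. Fitted changes can differ slightly from differences of group means because of the batch term. Each mouse gave 1 array. The fit was tested on simulated data.

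Of the other iron genes, those called were named, at most 4 per list. Promoter windows came from the RefSeq table of GRCm38.p6, which was also used for current gene names. Members, lists and tests were chosen with earlier results of these data known. Alternatives were other scalings and background correction, no filter, the batch and slide handling, a replicate block, the arrays in the fit, each array left out and the mean of a gene's probes.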

Additional observations from a re-analysis of the deposited data

Results flagged for a closer look

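With 40 gene and group combinations tested, chance alone flags about 1 in 20, and 5 values stood apart from the rest of their group by Dixon's criterion. *Hamp2* in Pxr-/- PCN replicate 2 was at 13.87, and the other 5 livers of that group lay between 12.15 and 12.69. The same liver had the lowest *Slc40a1* of its group, at 11.79 against 12.23 to 12.34 in the others. *Slc40a1* in WT CONT replicate 4 was at 12.49, below 12.91 to 13.08. *Fth1* in Pxr-/- CONT replicate 5 was at 17.24, above 16.92 to 17.04, and *Ftl1* in WT CONT replicate 2 was at 18.07, above 17.81 to 17.90. WT CONT replicate 2 was also the liver with the high *Hamp2*, although that value did not meet the criterion. The causes were not tested.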

How the results depend on the processing

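In WT mice 4 of the 10 genes were called. The count was 2 with the deposited values (*Hamp2*, *Smad7*), 2 with no filter (*Slc40a1*, *Smad7*) and 0 in the second washing batch alone, which held 2 WT PCN arrays, and it was 2 to 4 with 1 array left out (2 without WT CONT replicate 3 or 5, or WT PCN replicate 2). In Pxr-/- mice, and between the control groups, it was 0 to 1 with 1 array left out. Over 11 other settings *Hamp* was called in 6 and *Hamp2* in 7 (their signs in WT mice were the same in all), *Slc40a1* in 8 and *Smad7* in 10. *Bmp6* was called in 3 and *Id1* in 1. Replicate numbers carry no pairing in the labels: of 33 pairs of arrays with the same number, 13 had deviations correlated above 0.1 (median 0.00285), and 7 of 23 arrays correlated best with their own number. With a replicate block, 1 gene was called between the controls (*Hamp2*, 2.05, adjusted p = 0.0401), and no other count changed.

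The remaining changes of sign were in differences that were not called. The deposited values, whose median over all probes was shifted by 0.11 in WT mice and by -0.18 between genotypes under PCN, gave *Tfr2* 0.17 after PCN in WT mice and 0.10 for the interaction, *Hfe2* -0.027 and *Ftl1* -0.024 between controls, and under PCN *Hamp2* -0.12, *Tfr2* -0.17, *Hfe2* -0.17, *Slc40a1* -0.21, *Id1* -0.078 and *Smad7* -0.17 between genotypes. Scaling to the 75th percentile gave, after PCN, *Tfr2* 0.0067 and *Ftl1* -0.06 in WT and *Fth1* -0.065 in Pxr-/- mice, *Tfr2* 3e-04 for the interaction, *Tfr2* 0.081 and *Fth1* 0.12 between controls, and *Ftl1* 0.084 under PCN. The first batch alone gave *Id1* 0.18 after PCN in Pxr-/- mice, *Hfe2* -0.11 for the interaction, *Tfr2* 0.013 between controls and *Smad7* -0.0505 under PCN. The second alone gave, after PCN in Pxr-/- mice, *Hamp* -0.24, *Hfe2* -0.018 and *Fth1* -0.0075, *Bmp6* 0.0018 between controls, and *Hfe2* -0.089 and *Slc40a1* -0.052 under PCN. The mean of a gene's probes gave *Slc40a1* -0.048 under PCN. With 1 array left out, changes of sign were limited to small differences: *Hfe2* -0.040 to 0.15 for the interaction, and, between genotypes under PCN, -0.038 to 0.15 for *Hfe2*, -0.051 to 0.31 for *Hamp2* and -0.047 to 0.17 for *Slc40a1*; *Tfr2* -0.058 to 0.043 between controls; and, after PCN in Pxr-/- mice, *Tfr2* -0.0062 to 0.062, *Id1* -0.50 to 0.0755 and *Fth1* -0.023 to 0.040. The causes were not tested.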
